A study of Drosophila melanogaster with 2 samples.

Results

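Many chm-eGFP peaks lay in groups along the chromosome, and 1350 of the 4049 peaks kept from the conservative list (33.3%) stood in 340 chains of 3 or more neighbouring summits. The peaks were chosen by their deposited signal, which had to be at least 20, and by their summit positions: neighbouring summits on a chromosome arm were joined where they were at most 5000 bp apart, and every peak of a chain of 3 or more was kept. Of the other kept peaks, 1060 stood in 530 pairs (26.2%) and 1639 stood alone (40.5%). The list held 4202 peaks, of which 4195 lay on the main arms and 146 of those had a signal under 20. Each chain was named by the protein-coding genes between its first and last summit, or by the 2 nearest genes where it overlapped none. Because signal and distance made the chains, both are given as descriptions, with no test.

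The study precipitated chromatin with an anti-GFP antibody from whole Drosophila melanogaster embryos of the strain chm-GFP, aged 0 to 24 h, in which chm (chameau) is expressed as an eGFP fusion. There were 2 biological replicates of this 1 group and no second group, so no condition was compared with another. Whole embryos mix all cell types and a full day of development, so a chain may hold peaks that were occupied in different cells or at different times. The deposited lists carry no read totals, so the depth behind a peak is unknown.

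Chameau belongs to the MYST histone acetyltransferases. It is known from fly genetics as a partner of Polycomb group genes in silencing and as a cofactor of the JNK pathway, the kinase cascade that drives closure of the dorsal epidermis in the embryo. Genes with elaborate expression in the embryo are often regulated by several enhancers spread over introns and flanking DNA, and groups of binding sites over such a gene are a familiar picture in chromatin maps.

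To show what DNA lay under chains with many peaks, windows from 100 bp before to 100 bp after a strong summit outside untranslated regions are printed, 2 for each of 3 chains and 1 for each of 4 others. They were read from the RefSeq release 6 genome, the assembly of dm6, and capitals mark any of 9 short words searched on both strands. The words were GAGAG for GAGA factor, CAGGTA for the pioneer factor Zelda, ATCGATA for the DRE type of core promoter, TGANTCA for AP-1, CAGCTG as an E-box and GCCATT for the Polycomb recruiter Pho. Also searched were the repeat CACACAC, the core promoter word GGTCACA and the AT-rich word TTTATNG.
SKIP peak 10, chr3R:22139223-22139423, plus strand: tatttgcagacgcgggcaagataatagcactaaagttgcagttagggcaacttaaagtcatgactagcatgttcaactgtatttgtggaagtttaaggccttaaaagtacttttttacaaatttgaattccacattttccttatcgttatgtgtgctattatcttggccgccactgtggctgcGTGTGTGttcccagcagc
SKIP peak 12, chr3R:22145928-22146128, plus strand: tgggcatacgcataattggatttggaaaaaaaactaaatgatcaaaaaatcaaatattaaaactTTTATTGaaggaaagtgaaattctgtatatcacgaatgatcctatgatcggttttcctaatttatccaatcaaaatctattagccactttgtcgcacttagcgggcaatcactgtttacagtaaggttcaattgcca
scyl peak 6, chr3L:11253315-11253515, plus strand: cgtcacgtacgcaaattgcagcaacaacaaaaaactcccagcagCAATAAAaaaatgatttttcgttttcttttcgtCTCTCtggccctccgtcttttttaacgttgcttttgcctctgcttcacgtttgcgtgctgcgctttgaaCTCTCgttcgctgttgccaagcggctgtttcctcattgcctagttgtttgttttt
scyl peak 9, chr3L:11256222-11256422, plus strand: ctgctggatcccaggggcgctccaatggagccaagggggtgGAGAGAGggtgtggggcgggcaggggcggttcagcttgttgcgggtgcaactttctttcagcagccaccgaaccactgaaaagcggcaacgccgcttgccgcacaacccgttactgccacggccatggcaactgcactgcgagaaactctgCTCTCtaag
CG7560 peak 1, chr3L:11405922-11406122, plus strand: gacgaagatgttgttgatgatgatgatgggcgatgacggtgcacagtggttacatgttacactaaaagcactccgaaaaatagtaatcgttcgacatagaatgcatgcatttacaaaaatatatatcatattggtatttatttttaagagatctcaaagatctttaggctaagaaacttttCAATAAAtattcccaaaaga
CG7560 peak 7, chr3L:11418439-11418639, plus strand: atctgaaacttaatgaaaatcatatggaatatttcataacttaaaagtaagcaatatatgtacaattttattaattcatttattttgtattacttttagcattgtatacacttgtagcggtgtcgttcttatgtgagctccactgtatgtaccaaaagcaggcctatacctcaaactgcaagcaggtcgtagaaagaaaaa
how peak 7, chr3R:22049245-22049445, plus strand: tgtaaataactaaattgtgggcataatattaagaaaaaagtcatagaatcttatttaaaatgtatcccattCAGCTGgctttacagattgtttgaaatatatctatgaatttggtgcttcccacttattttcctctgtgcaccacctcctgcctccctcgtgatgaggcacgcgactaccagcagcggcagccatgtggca
chinmo peak 3, chr2L:1643379-1643579, plus strand: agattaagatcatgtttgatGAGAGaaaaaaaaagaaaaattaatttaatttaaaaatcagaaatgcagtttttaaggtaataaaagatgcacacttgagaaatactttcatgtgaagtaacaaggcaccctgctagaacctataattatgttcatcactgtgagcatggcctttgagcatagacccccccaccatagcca
CHES-1-like peak 8, chrX:7706914-7707114, plus strand: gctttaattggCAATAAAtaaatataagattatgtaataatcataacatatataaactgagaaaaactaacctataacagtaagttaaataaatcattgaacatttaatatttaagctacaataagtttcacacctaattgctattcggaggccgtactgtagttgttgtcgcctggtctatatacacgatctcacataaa
Glut4EF peak 6, chr3R:9881448-9881648, plus strand: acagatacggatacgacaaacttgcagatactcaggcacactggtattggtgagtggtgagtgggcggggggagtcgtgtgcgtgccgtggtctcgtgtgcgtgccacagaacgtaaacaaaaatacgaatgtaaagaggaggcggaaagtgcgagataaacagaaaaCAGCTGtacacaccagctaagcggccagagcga
The 2 windows of scyl, a growth inhibitor gene, held GAGAG on one strand or the other, and the window of chinmo held it as well. Peak 7 of the CG7560 chain, with a signal of 373, held none of the 9 words, and the remaining windows held 1 word each.

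Chains were mostly short. A chain had 3 peaks in 186 cases, 4 in 75, 5 in 41, 6 in 18 and 7 or more in 20, and the longest had 15. The span from first to last summit had a median of 4740 bp and ran from 435 to 32454 bp, and all spans together covered 1.35% of the arms. Neighbouring summits within chains were a median of 1377.5 bp apart. Of these 1010 distances, 63 were 250 bp or less, 34 were between 250 and 500 bp and 282 between 500 bp and 1 kb. In 63 neighbour pairs, found in 59 chains, the peaks themselves overlapped, and 59 of these were among the distances of 250 bp or less. Whether overlapping peaks are separate sites or parts of 1 site was not tested. The limit of 5000 bp fell in a flat range of the distances: among all kept peaks 162 neighbours had a distance in the last 1 kb below it and 150 in the first 1 kb above it. The widest distance inside the limit was 4988 bp and the narrowest outside it 5011 bp, while the weakest kept peak had a signal of 20.02 and the strongest dropped peak 19.56.

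**Figure D1:**
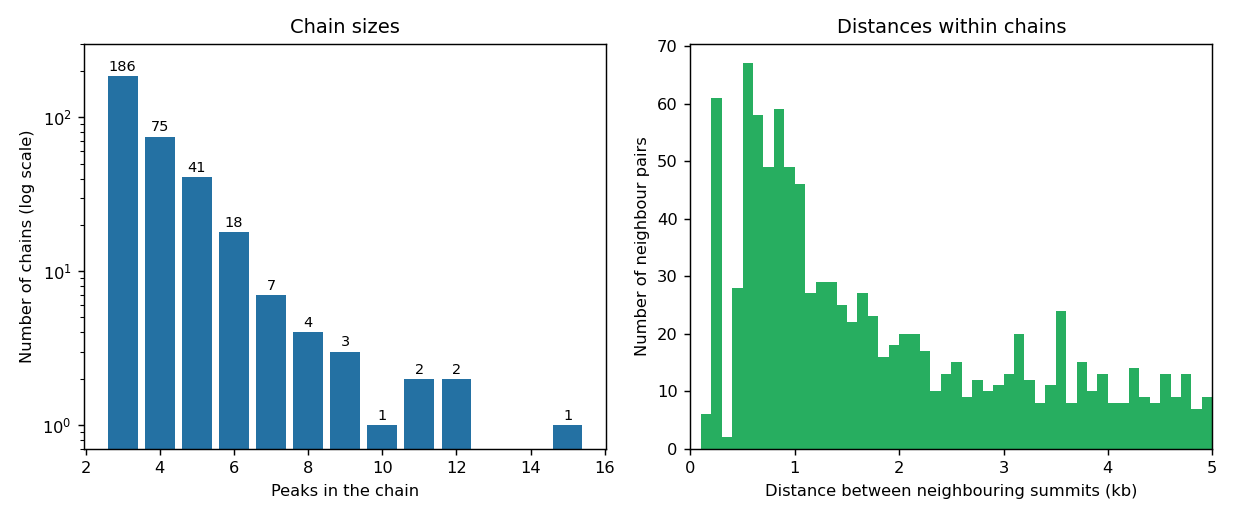
Left, number of chains (log scale) by the number of peaks in the chain, with the count above each bar. Right, number of neighbour pairs by the distance between their summits in kb, in steps of 0.1 kb; the short bar group near 0.2 kb is separate from the broad maximum between 0.5 and 1.1 kb, and the distances then thin out up to the limit of 5 kb.

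Chained peaks had nearly the median signal of peaks standing alone but lay elsewhere. The median was 94.9, against 97.5 for single peaks and 95.01 for peaks in pairs. A promoter, taken as the 500 bp on each side of any start of a protein-coding transcript, held the summit of 40.7% of chained peaks (95% Wilson interval 38.1 to 43.4%, counting error only). Over all kept peaks the promoter share was 51.7%, and for single peaks it was 58.6% (56.2 to 60.9%). The difference was taken up by introns, which held 36% of chained and 23.2% of single summits, and by exons of non-coding or otherwise unclassed transcripts, with 5.85% against 1.65%. Intergenic shares were 13.0% and 14.0%. The promoter share was lower in longer chains: promoters held 48.2% of summits in chains of 3, 46.7% in chains of 4, 34.8% in chains of 5 or 6 and 17.9% in chains of 7 or more. The intergenic share went from 8.24% in chains of 3 to 25.1% in chains of 7 or more. The same order was found with the rule applied to each replicate's own list. In replicate 1 promoters held 53.6% of single summits, 41.0% in chains of 3 or 4 and 25.2% in chains of 5 or more, and in replicate 2 these shares were 61.8, 52.9 and 32.9%. The replicates' shares over all chained peaks, 35.7% and 46.2%, averaged 41.0% ± 7.43 (SD, n = 2).

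**Figure D2:**
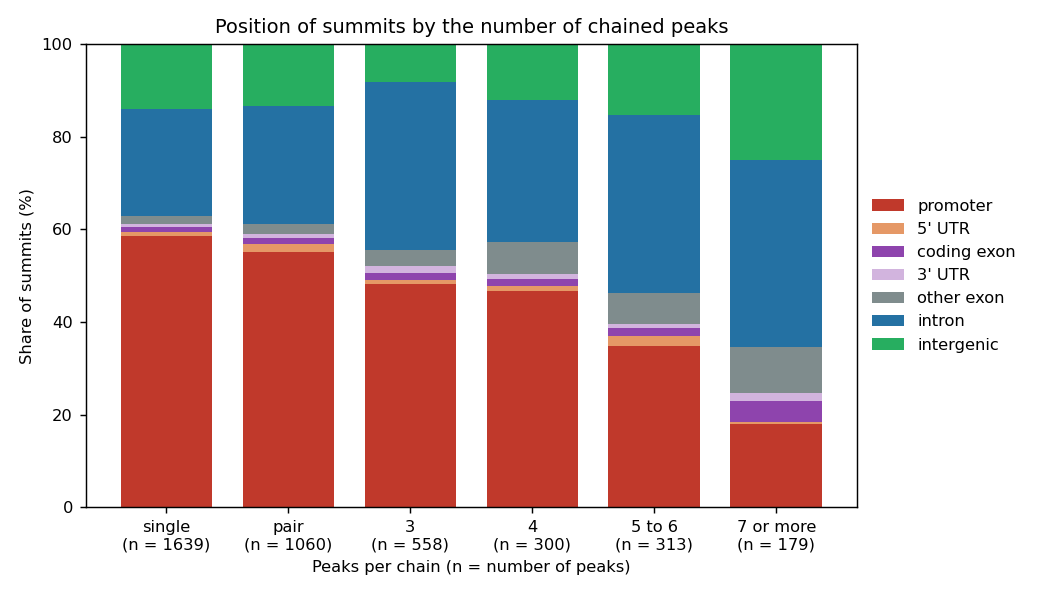
Share of summits (%) in each position class for single peaks, pairs and chains of 3, 4, 5 to 6 and 7 or more peaks, with the number of peaks under each bar. The promoter share is 58.6% for single peaks and 17.9% in chains of 7 or more, and the intron and intergenic shares are larger in the longest chains.

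Within introns, chained peaks lay nearer the beginning of the gene than single peaks, a contrast on which the distance rule itself bears. By that rule a single peak has no other kept summit within the joining distance. A single intronic peak therefore cannot lie that close to a kept promoter peak, while a chained one can. Whether the shares, positions and start distances given here differ apart from this rule was not tested. Of 486 intronic chained peaks, 60.3% were in the first 1/3 of the gene body, against 45.1% of 381 single intronic peaks, and the median relative position was 0.25 of the gene length from its start against 0.39. From the nearest protein-coding start, chained peaks were a median of 859.5 bp away, pairs 260 bp and single peaks 193 bp. Such chains extended from a start into introns in several of the named genes, among them how, shn, mbc, ush and S.

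The span of most chains overlapped a single protein-coding gene or none. Such a chain can still hold a promoter peak of a neighbouring gene, as the msn chain did for RpL8. The span overlapped 1 protein-coding gene in 178 chains, 2 genes in 79, 3 or more in 55 and none in 28, and 117 chains lay wholly inside a gene body. A promoter peak was absent from 57 chains, single in 110 and repeated in 173. Of those 173 chains, 123 had promoter peaks near starts of several genes and 50 near starts of 1 gene alone. These counts are of gene names, so 2 promoter peaks of a chain can lie beside the same start, as at NFAT. In the 244 chains with both promoter and other peaks, the strongest peak was at a promoter in 132 (54.1%), where promoters held 42.2% of their peaks. The strongest peak held a median of 41.7% of the summed signal of its chain, and it was at least 2 times the next strongest in 84 chains (24.7%).

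Chained peaks were found in the replicates about as often as the other peaks of the list. Of the chained peaks, 660 (48.9%, interval 46.2 to 51.6%) were in the thresholded lists of both replicates, where the share over all kept peaks was 47.9% and over single peaks 46.8%. A further 233 were in the list of replicate 1 alone, 236 in that of replicate 2 alone and 221 (16.4%) in neither. The conservative list itself rests on both replicates, so these overlaps are no separate evidence. Nearly all chained peaks had a peak of some rank in each replicate, 1278 of 1350 in both. Across these peaks the signals of the replicates had a Spearman rho of 0.50, a correlation across peaks of the same 2 libraries. Summed over each of the 340 chains, the signals of the replicates had a rho of 0.78. In both replicates such a sum grows with the number of peaks in the chain, so the 2 rho values cannot be compared. The same peak was the strongest of its chain in both replicates in 203 chains (59.7%). In 44 cases neighbouring peaks matched the same replicate peak, so their replicate values repeat.

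**Figure D3:**
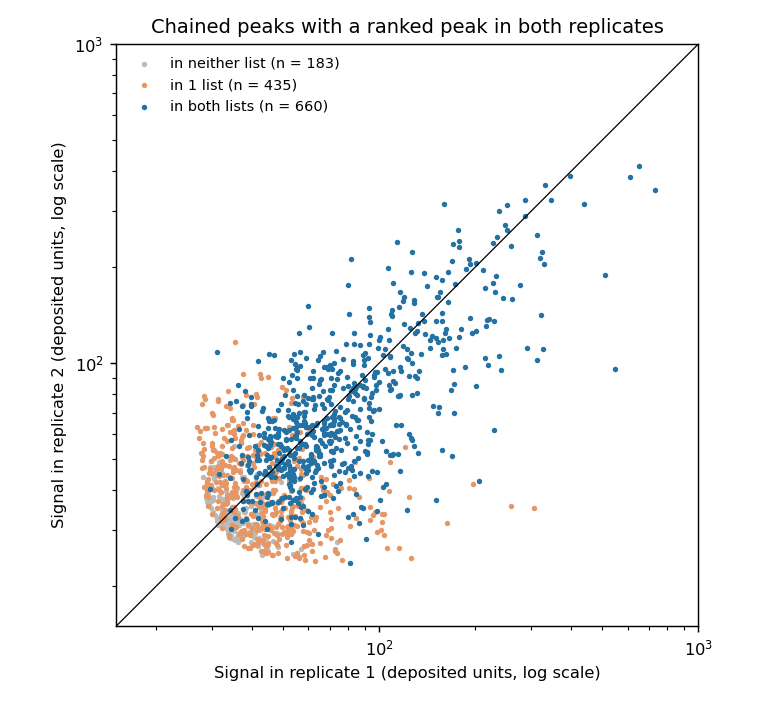
Signal of each chained peak in replicate 1 (x axis) and replicate 2 (y axis), both log scales in deposited units, for the 1278 peaks with a ranked peak in both; the line marks equal values. The 660 peaks in both thresholded lists lie at the upper end, while the 183 in neither list gather at the lower left.

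When the chains were built again from each replicate alone, there were 262 chains in replicate 1 and 317 in replicate 2. Of the 340 chains, 188 (55.3%) were overlapped by a chain of replicate 1 and 197 (57.9%) by a chain of replicate 2. In all, 126 (37.1%) were overlapped by chains of both replicates, and 81 by none. The long chains returned more often than the short ones: 59 of the 79 chains of 5 or more peaks and 18 of the 20 chains of 7 or more had a counterpart in both replicates. A longer span has more room for an overlap, so this order is a description of the lists. The chains of 5 or more without any counterpart were the one at psq, the gene of a GAGA-binding BTB protein, and the one between NijA and CG43245.

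The chain with the most peaks ran over SKIP, a gene whose product binds the Shal potassium channel, and its neighbour CG42390, at chr3R:22121412-22153866. Its 15 peaks spanned 32454 bp and had a summed signal of 1917. The strongest lay 83 bp from a SKIP start and had a signal of 339, with 216 in replicate 1 and 131 in replicate 2. Both windows printed above are intronic: peak 12, with a signal of 253, read 172 and 85.9 in the replicates, and peak 10, with 228, read 148 and 73.5. Every peak from peak 10 on was higher in replicate 1 than in replicate 2, and 7 of the 15 peaks were in the thresholded lists of both.

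Among the 20 chains of 7 or more peaks, the chain over scyl had the most peaks in the lists of both replicates. The gene encodes an inhibitor of growth through TOR that is known to be induced by hypoxia. Its 12 peaks, at chr3L:11246284-11261712, had a summed signal of 1827, and 11 of them were in the lists of both replicates. The strongest lay 48 bp from the scyl start with a signal of 453, and it read 234 in replicate 1 and 248 in replicate 2. Peaks covered the short gene from its start through its 5' UTR, intron and coding exon to its 3' UTR, and more lay in the intergenic DNA on each side. The paralog chrb (charybde), of the same family of growth inhibitors, also carried a chain, with 5 peaks at chr3L:11487835-11493514. Its strongest peak, 285 bp from a chrb start, had a signal of 296 and read 153 and 117. With 2 of its 5 peaks in both lists, the chrb chain was less complete in the replicates than the scyl chain.

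Between these paralogs on the same arm lay a chain of 11 peaks named by CG7560, at chr3L:11406022-11431449, with 10 intergenic summits and no promoter peak. Its outer peak 1 had the highest signal of the chain, 403, and read 244 in replicate 1 and 160 in replicate 2. Peak 7 followed with 373, and read 187 and 197, so the replicates disagreed on which of the 2 was stronger. Of its 11 peaks, 4 were in both lists.

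In how (held out wings), which encodes an RNA-binding protein of muscle and tendon, 11 peaks at chr3R:22039699-22057432 were of even height. The lowest signal was 37.3 and the highest 163, and 8 peaks lay in introns. The strongest was the intronic peak 7, with 96.2 in replicate 1 and 71.1 in replicate 2, and the promoter peak, 66 bp from the start, read 91.3 and 60.6. By contrast, the 10 peaks at chinmo, the gene of a BTB zinc-finger protein that sets the temporal identity of neurons, were strongest at the promoter. There the signal was 266, with 79.8 in replicate 1 and 175 in replicate 2. All 9 chinmo peaks with a value in both replicates were higher in replicate 2, 2 of them through the same replicate peak. The SKIP introns and the chinmo chain thus differed between the replicates in opposite directions.

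**Figure D4:**
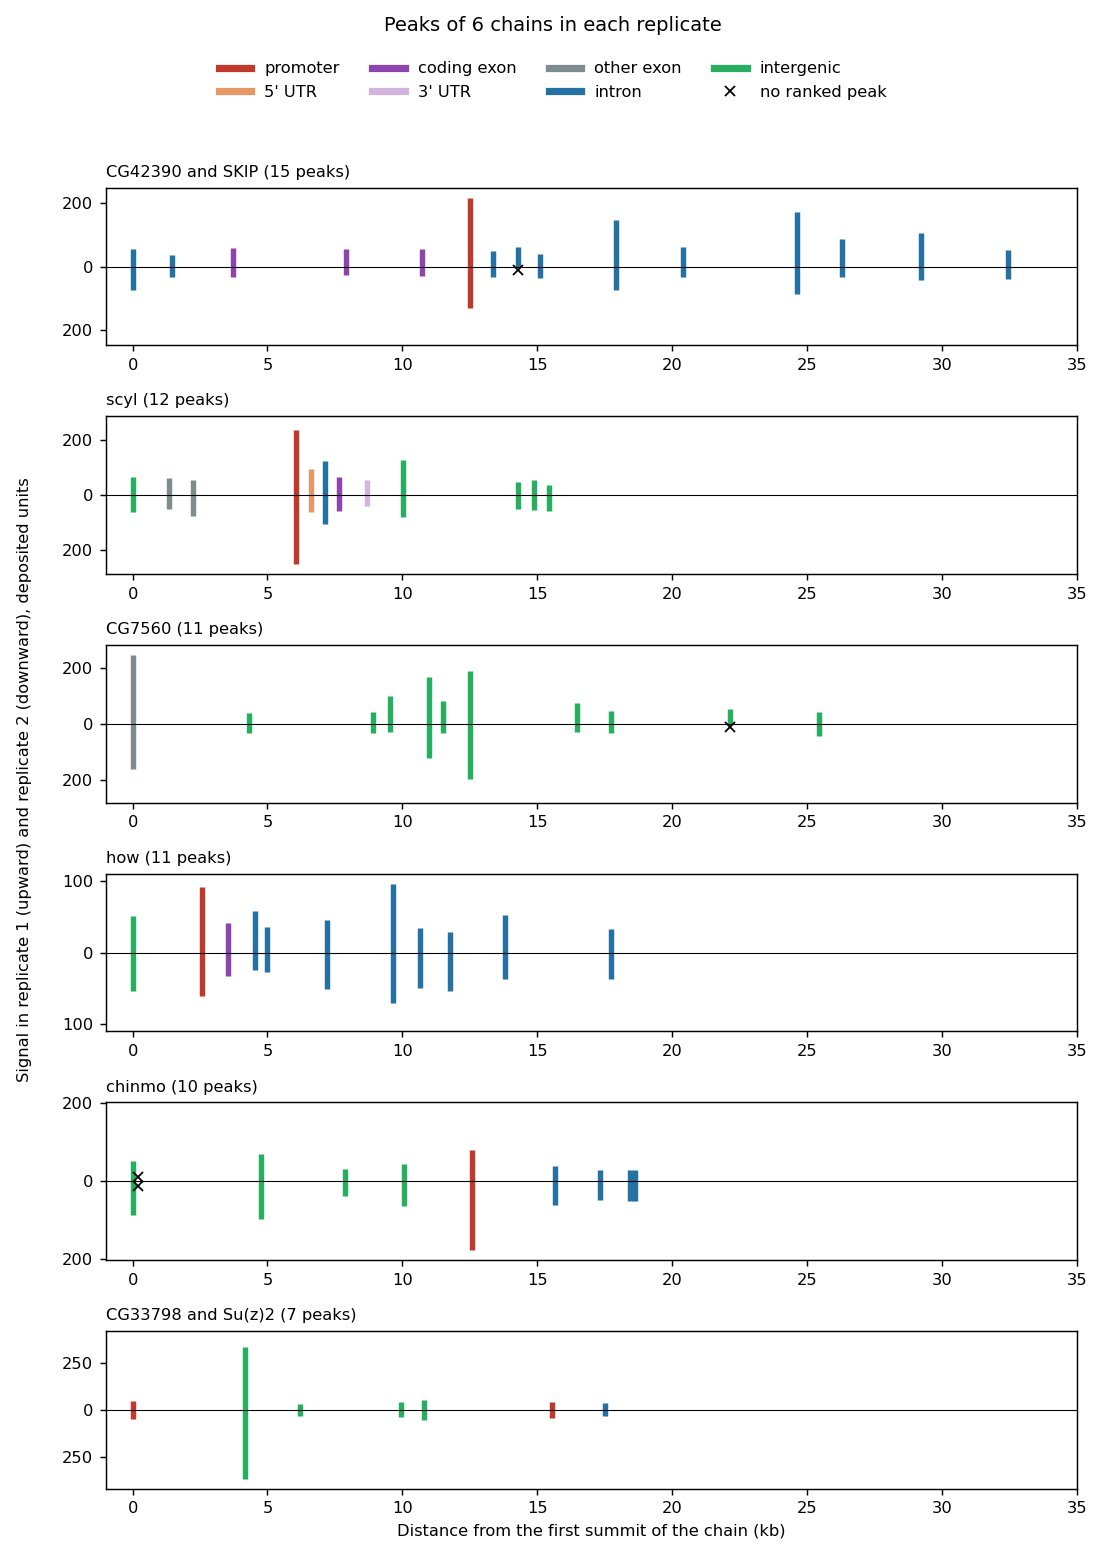
Signal of each peak in replicate 1 (upward) and replicate 2 (downward), in deposited units, against the distance from the first summit in kb, for the chains over CG42390 and SKIP, scyl, CG7560, how, chinmo, and CG33798 and Su(z)2; colours give the position class and a cross marks a replicate without a ranked peak. The vertical scale differs between panels; scyl and Su(z)2 have 1 tall peak in both replicates, how has many of like height, and chinmo is taller in replicate 2.

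The chain with the highest summed signal, 2156, had 12 peaks at CG1888 on 2R and ran on over the microRNA gene mir-14. A single promoter peak of CG1888 made up much of it, with a signal of 1055, and 653 in replicate 1 and 414 in replicate 2. CHES-1-like, a forkhead gene, had 9 peaks on X, of which the intronic peak 8 had 399 and read 178 and 232. The chain of 9 peaks at Glut4EF and CG46467 had its strongest peak, with 165, at the start the annotation gives both genes, and it read 70.1 and 98.3. In atos 9 peaks lay in introns and at 2 starts of the gene, with signals of 53.4 to 137. In shn (schnurri), a zinc-finger repressor gene of the Dpp pathway, 7 of 8 peaks were intronic, and the strongest read 58.9 and 104. The HmgD and HmgZ genes, which encode HMG-box chromatin proteins, shared a chain of 8 peaks with CngB and had an intronic top peak of 510. A chain of 8 peaks joined Socs36E, an inhibitor of JAK/STAT signalling, with kel, and 1 of 7 peaks ran over CG2865 and Raf, the kinase of the Ras pathway, with a top peak of 461. The remaining chains of 7 were at noc, CG5953, the group drongo, CG4291, kraken and CG13949, the pair CG14434 and CG43736, the stretch between mtSSB and tara, and Su(z)2.

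The Su(z)2 chain bears on the Polycomb group, whose products keep developmental genes silent. It had 7 peaks at chr2R:12981026-12998549, from the promoter of Psc over that of the related RING-finger gene Su(z)2 to an intronic peak beyond it. Of these peaks, 4 were in both lists, and the list of replicate 2 alone formed no chain there. Its strongest peak lay in neither gene but in the DNA between them, with 4190 bp to the nearest coding start and a signal of 682, and it read 330 in replicate 1 and 362 in replicate 2. The other 6 peaks had signals of 65.0 to 95.6, the promoter peaks of Psc (79.6) and Su(z)2 (95.6) included. The Su(z)2 promoter peak was in the thresholded list of neither replicate. At the polyhomeotic genes, which encode another subunit of the same kind of complex, the ph-p chain of 4 peaks had a peak with a signal of 993 at 497 bp from a ph-p start, with 610 and 383 in the replicates. A neighbour 599 bp away had a signal of 334, and it read 157 and 182. The ph-d chain of 3 peaks was weaker, with a highest signal of 104. The strongest of all chained peaks, with 1082, was at a promoter in the 3-peak chain of px, a wing vein gene, and read 730 in replicate 1 and 349 in replicate 2.

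The gene that carries the tag, chm, had a chain too. Its 6 peaks at chr2L:7418598-7426607 had signals of 61.6 to 132. Peaks 1 and 2 were in chm introns, 4 and 5 over non-coding exons, and peak 6 lay 259 bp from a start of muc, the gene of a mitochondrial dehydrogenase subunit. The intronic peak 2 read 67.5 and 62.8 in the replicates. Peak 5 lay 77 bp from the microRNA gene mir-275 and 88 bp from mir-305, and it read 32.4 and 34.00. The strain was labelled as an insertion targeting chm, and whether the tag itself adds signal at this locus was not tested.

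MicroRNA genes were found under 12 chains, which held 14 of the 260 microRNA genes annotated (5.38%). Besides mir-14, mir-275 and mir-305 they included mir-8 in a chain of 6 peaks without a coding gene. Its nearest summit was 150 bp away, with a signal of 40.8 and a ranked peak in replicate 1 alone, while the strongest peak of that chain, 181, read 89.7 and 77.7. Others were mir-4943, mir-2282 in sty, mir-308 beside RpS23, mir-276a, mir-281-1 and mir-281-2, mir-4962 in Tlk, mir-2496 and mir-9370. Over all protein-coding genes the share under chains was 3.64%. Coding and microRNA genes differ in length, and some microRNA genes share a chain, so the shares were not compared.

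Genes under chains were long. A chain overlapped 509 of 13968 protein-coding genes (3.64%). The share was 1.68% of genes of 2 kb or less, 5.18% of genes of 5 to 10 kb and 15.3% of genes over 50 kb, and the median length was 7181 bp under chains against 2164.5 bp over all genes. Each gene list below is therefore set beside the share that genes of the same length classes gave, as a description without a test. Most lists are short, so a share above that of its length classes often rests on few genes, as does one below it.

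JNK pathway and dorsal closure genes had the highest share, 8 of 24 genes (33.3%), where genes of the same length classes gave 8.66%. They were ush, aop, zip, msn, Src64B, cno, puc and kay. The cno gene, for the junction protein Canoe, had a peak with a signal of 651 in its chain of 5, but it read 548 in replicate 1 and 96.2 in replicate 2, so its height rests on replicate 1. In msn (misshapen, a kinase that acts at the top of the cascade) 5 peaks were more even between the replicates. The strongest of them, with 306, lay 18 bp from the start of the neighbour RpL8 and read 151 and 161, and the intronic peak 2, with 291, read 158 and 136. The phosphatase gene puc, a transcriptional target and inhibitor of the pathway, had 5 peaks of 72.8 to 120 without a promoter peak, 4 of them in both lists. The Fos gene kay had 3 peaks of 82.2 to 96.9, and its promoter peak read 38.5 and 47.9. In ush, a cofactor of GATA factors, 2 chains of 6 and 4 peaks lay in the same gene, and the strongest peak of the first, with 216, read 107 and 93.4. The aop gene, which encodes the ETS repressor Yan, had an intronic peak of 344 that read 238 and 105. The zip and Src64B chains had 3 peaks each, with highest signals of 141 and 109. Support in both replicate lists was uneven: 1 of 3 peaks each at kay, aop and zip, 2 of 3 at Src64B and 2 of 5 at cno. It was 4 of 5 at msn, and 4 of 6 and 3 of 4 in the 2 chains of ush.

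EGF and FGF receptor signalling genes followed a like pattern, with 5 of 22 (22.7%, against 8.97% for their length classes): S, aop, edl, sty and aos. In S (Star, needed to process the EGF ligand) the intronic peaks 2 and 4 had signals of 287 and 332. Peak 4 read 200.8 and 125.7, while peak 2 read 228 in replicate 1 and 61.9 in replicate 2. In sty (sprouty, an inhibitor of the receptor pathway) the strongest of 5 peaks had 276 and lay at the promoter. The aos gene, for a secreted inhibitor, had a highest signal of 365 and edl, for an antagonist of Yan, 295, each in a chain of 3. The list shares aop with the preceding one.

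Chromatin genes were represented by the 4 Polycomb group genes and partners already described or named, chm, Su(z)2, ph-d and ph-p, of 22 (18.2%, against 5.44%). Of 16 trithorax group and Brahma genes 4 (25%, against 7.73%) were under a chain, namely kis, Trl, skd and fs(1)h. Trl, the gene of GAGA factor, had 3 peaks up to 409, all 3 in both lists. The remodeller gene kis had 2 chains, of 4 and 3 peaks, with 1 peak of each in both lists.

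Of the cytosolic ribosomal protein genes, which are short, 10 of 82 (12.2%, against 1.85%) were under a chain, among them RpS21, RpL27A, RpS23, RpL12, RpL39, RpL19, RpL34b, RpL6 and RpS19a. The chains over these named genes each held promoter peaks of several genes, and RpL12 and RpL39 shared one. The RpS23 chain of 5 peaks had its top peak of 179 at 14 bp from the RpS23 start, which read 90.5 and 88.6. Mitochondrial ribosomal protein genes were at 4 of 73 (5.48%, against 1.85%), and mRpL27 shared its chain with RpL27A.

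Muscle and heart genes had 4 of 23 under chains (17.4%, against 9.18%), namely sns, how, mbc and kirre. Cell cycle genes had 3 of 19 (15.8%, against 4.43%), with CycB beside a peak of 570 in a chain of 4 that it shares with blw, and Dp and trbl. The Wingless and Hedgehog list had ptc, fz2 and ci of 22 (13.6%, against 8.44%), the Dpp list tkv and shn of 17 (11.8%, against 7.84%), the ecdysone list Eip75B and Hr4 of 12 (16.7%, against 12.2%) and the tracheal list vari and rib of 13 (15.4%, against 7.03%). For rib, a BTB factor of tracheal and salivary gland shape, the top of 6 peaks was intronic with 331. Notch pathway genes had mam and neur of 20 (10%, against 5.92%), neural precursors brat and D of 22 (9.09%, against 6.09%), and neurons robo2 of 16 (6.25%, against 12.1%). In the chains at sns, ci and Eip75B, and in 1 of 2 chains at fz2, no peak was in both replicate lists. The other chains over genes of these lists had at least 1 such peak.

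Patterning genes had few or no members under chains, in numbers too small to set them apart from genes of like length. Of 12 Hox genes Antp alone was overlapped (8.33%, against 8.54%), by 3 peaks of up to 104, and of 54 selector and Polycomb target transcription factor genes vg and D were (3.70%, against 7.38%). None of 20 gap and pair-rule genes was, which allows a share of up to 15% where their length classes gave 4.24%. None of 19 dorsoventral genes was (up to 15.8%, against 7.53%) and none of 9 glial genes (up to 33.3%, against 5.64%). These limits lie above the length-class shares, so the counts of 0 show no shortage. Chemosensory receptors gave 0 of 179 genes, which allows up to 1.68%, and cuticle proteins 0 of 119, which allows up to 2.52%. The shares of their length classes were 2.10% and 2.12%, so for receptors the limit lies below that share and for cuticle proteins it does not.

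**Figure D5:**
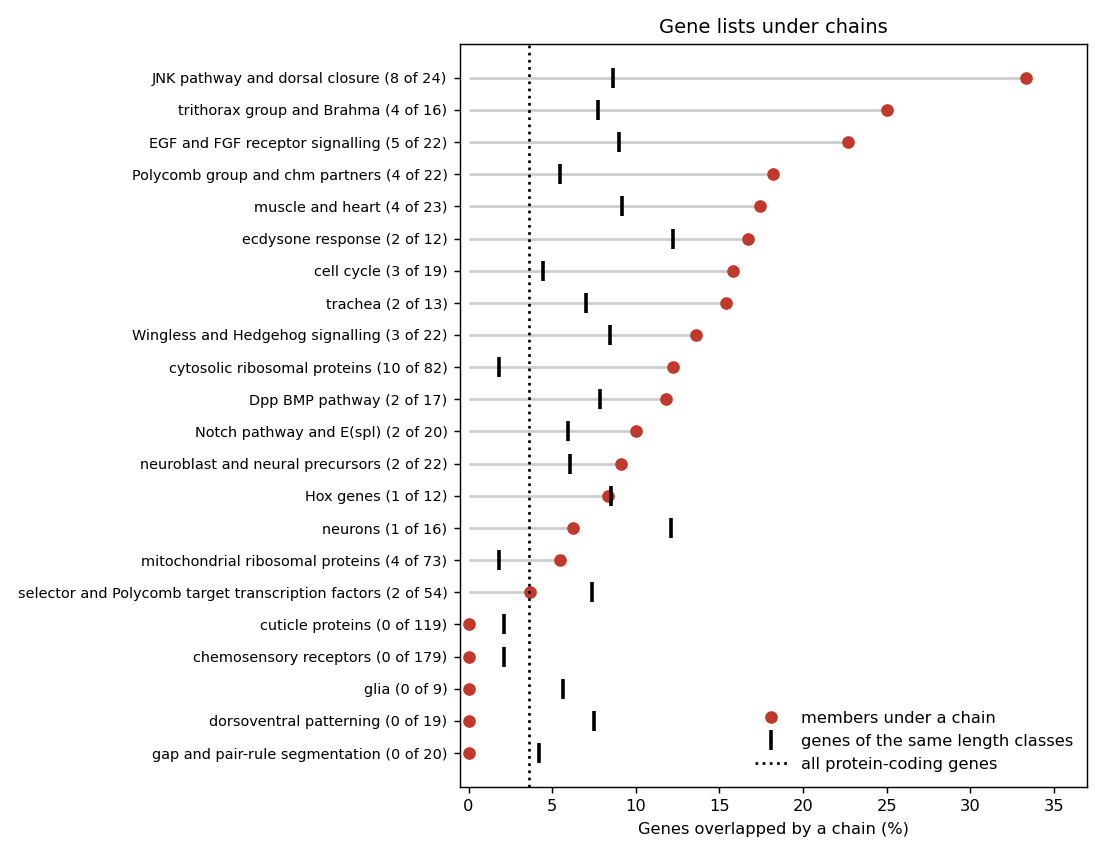
Share of protein-coding genes overlapped by a chain (%) in 22 gene lists, with the number of genes in brackets; dots give the list, black ticks the share in genes of the same length classes and the dotted line the share over all genes, 3.64%. The JNK and dorsal closure list is at 33.3%, the trithorax list at 25% and 5 lists are at 0.

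Among the other chains of 5 or 6 peaks, the strongest peak had a high signal in Rtnl1 (667, promoter), Tlk (781, intron), NFAT (531, intron), LPCAT (520, intron) and emc with hng3 (424, promoter). The Tlk peak, in a Tousled-like kinase gene, read 397 in replicate 1 and 385 in replicate 2. Other chains covered wts with dj-1beta and cindr, Diap1 with Mbs, Stat92E with 3 neighbours, sima with 3 neighbours, tkv, Sxl with CG4615, Mnt, Kr-h1 with CG45075, Hr4, trbl, sbb and px. The cytoskeletal genes Act5C and alphaTub84B had chains of 6 and 5 peaks, with tops of 204 and 285, and so had hts with CalpA (286), mbc (153), smash (159) and cv-c (143). Further chains of this size were at siz and its neighbours on 2 stretches, sigmar with l(2)dtl, Alg3 and CG5504, aru with dbe and PNUTS, CG9837 with aqz, CG6191 with CG45088, psq, babos, CG13894, Mi-2 with Su(Tpl), bmm with Tdrd3 and Helz, caps, l(3)neo38, pasi2 with drn, glec, sky with CG43739 and Mtp, l(2)k01209 with CG6550, neur with hyx, Ppa and pdgy. Chains without any coding gene also lay between Jhbp1 and CG14662, CG4218 and CG3473, and CG6168 and CG6163, and their highest signals were 106, 330 and 107. The peak of 330 read 306 in replicate 1 and 35.1 in replicate 2, so its height rests on replicate 1. The list of replicate 2 alone formed no chain between CG4218 and CG3473. In all, 17 genes carried 2 chains each, Raf, HmgD, Tlk, sbb, px, simj and tna among them.

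At the other end were chains of 3 peaks packed closely. The shortest lay between l(2)k09848 and CG7849 with a span of 435 bp, and its closest summits were 204 bp apart. Next came the chains between CG8034 and CG8051 (687 bp), with all 3 peaks in both lists, and at CG9171 (696 bp). The widest chains of 3 were at Srg3 with CG3529 and CG3448 (9520 bp), Kank (7880 bp) and PRAS40 (7779 bp), where each distance inside the chain was over 3 kb.

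All arms but Y held chains. Of the kept peaks, 32.1% were chained on X, 35.1% on 2L, 38.0% on 2R, 33.9% on 3L and 27.5% on 3R. On chromosome 4, with 16 kept peaks, 7 were chained. Of these, 4 were in the chain named by ci, the gene of the Hedgehog transcription factor, and 2 of the 4 lay at ci itself.

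Taken over all positions, base composition and most of the short words were much alike in chained and other peaks. The median GC content of the windows was 43.3% in chained and 42.3% in single peaks. It was 44.8% and 43.8% at promoters, and 42.8% and 40.3% elsewhere. GAGAG was in 35.9% of chained windows and 30.9% of single ones, where all kept peaks gave 33.1% and windows of the same length at all 19275 protein-coding starts 25%. CACACAC was in 15% of chained and 10.7% of single windows, where all kept peaks gave 12.7% and all starts 6.67%. ATCGATA, known from the promoters of housekeeping genes, went the other way, with 4.37% of chained, 7.75% of single, 6.42% of all kept windows and 12.7% of starts. Among promoter peaks alone it was in 8.73% of chained and 11.9% of single windows.

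The other words gave shares within a few percentage points of the background. CAGCTG was in 11.5% of chained windows, where all kept peaks gave 11.9% and all starts 13.4%. TTTATNG was in 16.4%, where these gave 15.7% and 19.2%. GCCATT was in 8.81%, against 9.78% and 12.4%, and in 11.8% of single windows. CAGGTA was in 4.89%, where all kept peaks gave 4.57% and all starts 4.26%. TGANTCA, the word of the Jun and Fos factors that act under JNK, was in 4.22%, where these gave 4.27% and 3.79%. GGTCACA was in 4.15%, where these gave 4.27% and 7.03%. Among promoter peaks alone GGTCACA was in 8.18% of chained and 6.15% of single windows. Single windows of all positions held CAGCTG in 12.6%, TTTATNG in 14.2%, CAGGTA in 4.15%, TGANTCA in 5.37% and GGTCACA in 4.03%. By position, CAGCTG was in 13.8% of chained and 16.8% of single windows at promoters, and in 9.88% and 6.77% elsewhere. For CAGGTA these shares were 3.27% and 4.17% at promoters, and 6% and 4.12% elsewhere. The remaining words differed in the same direction at promoters and elsewhere. A word in a window is a match of letters and says nothing of a bound factor.

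Within chains the words were rarely shared by all peaks. GAGAG was in every window of 11 of the 340 chains, in at least 2 windows of 137 and in none of 75. CAGCTG was in every window of 1 chain, and each of the other 7 words was in every window of none. CACACAC was in at least 2 windows of 39 chains and TTTATNG of 44.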

How the data were processed

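The 2 samples are biological replicates of 1 group, chromatin precipitated with anti-GFP from chm-eGFP embryos. The deposited files are peak lists on dm6, per the labels, called per replicate, on pooled reads and on the replicate pair, either ranked in full or limited by their irreproducible discovery rate (IDR). The aligner, peak caller and read depth were not given in the sources used here. Signal is the deposited value of a peak, of unstated scale. Values of a replicate come from its own list and are on another scale than those of the conservative list.

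From these lists, summits were chained and placed on Ensembl release 115 genes (BDGP6.54) and the RefSeq release 6 genome, whose arms contain all peaks. Promoters took precedence over exons (5' UTR first, then coding, 3' UTR and other) and exons over introns, and the rest was intergenic. A peak was in a replicate where 50% of the shorter peak overlapped. Length-class shares average, over a list's genes, the share of their length class under chains. Limits for 0 are 3 counts of the total. Scripts used Python 3.11.15, pandas 2.3.3 and scipy 1.17.1, and were tested on simulated data.

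The chained peaks, the 22 gene lists, the 9 words and the naming rule (all chains of 5 or more peaks, up to 4 chains per gene list, the 3 shortest and 3 longest chains of 3, the strongest peak) were chosen with earlier results of these data known. A few single peaks and neighbours within these chains were singled out after their values were seen. Alternatives changed the distance, signal minimum, chain size, list, promoter window, overlap and word window. A few members of these chains and lists are not reported here.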

Additional observations from a re-analysis of the deposited data

How the results depend on the processing

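The 340 chains, their 1350 peaks and 509 genes depend on the limits that define them. With neighbours at most 2000 bp apart there were 187 chains, 667 peaks and 200 genes, at a median distance of 858 bp, and at 10000 bp there were 2065 peaks and 1167 genes, at 2201 bp. With signals at or above the median of the list there were 93 chains, 318 peaks and 134 genes, with a median signal of 133.8, a median distance of 1761 bp and 80.2% of peaks in both replicate lists. Chains of 4 or more numbered 154, with 792 peaks and 230 genes, and the pooled list gave 586, 2560 and 930. Each replicate alone gave 262 to 317 chains, 1028 to 1238 peaks, 365 to 541 genes, 35.7 to 46.2% at promoters and a median distance of 1402 to 1463 bp. A promoter window of 1 kb raised the promoter share from 40.7 to 52.7%, and a window of 250 bp lowered it to 33.7%. Ranked peaks of any strength put 94.7% of chained peaks in both replicates. Any of the 9 words was in 70.5% of windows, in 42.2% within 50 bp of the summit and in 83.3% of whole peaks. In alternatives added after the data were seen, joining overlapping peaks gave 314 chains, 1236 peaks, 476 genes and a median distance of 1510.5 bp. Peaks in both replicate lists alone gave 93 chains, 314 peaks, 130 genes and 1504 bp. These changes follow from how each alternative is built. The promoter share was 38.0 to 44.5% with the other distances, the higher signal minimum and the pooled list. The SD of 7.43 comes from the 2 replicate lists themselves, so a share within it is no sign of stability. No paired analysis was possible because there is 1 group. The depth is unknown, so peaks missed for want of reads cannot be told from sites without signal.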
